A study of Arabidopsis thaliana with 27 samples.

Results

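The genes described here are the UDP-glycosyltransferase (UGT) genes of Arabidopsis thaliana that could be read on Affymetrix ATH1 arrays. A gene was taken when a probe set (the group of short probes that measures a transcript) carried a single symbol of the form UGT, family number, letter and member number. The rule uses names only. It gave 47 genes, each with 1 probe set, of 13350 genes named on the array, and they fall into 11 numbered families: UGT71 (9 genes), UGT76 (8), UGT73 (7), UGT84 and UGT85 (5 each), UGT72 (4), UGT74 and UGT78 (3 each), and UGT80, UGT87 and UGT88 (1 each). For 4 further UGT genes the annotation uses another symbol, and 3 probe sets carry a UGT symbol beside other symbols; none of these belongs to the 47.

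Leaves and inflorescences were profiled from the wild type Col-0 and from plants carrying dcl4-2, rdr6-15 or dcl1-7, which are alleles of the small RNA genes DCL4, RDR6 and DCL1. There were 9 groups of 3 arrays. The 12 leaf arrays hold rosette leaves 5 to 8 of Col-0, dcl4-2, rdr6-15 and dcl1-7, all against the same Col-0 leaf arrays. The 15 inflorescence arrays hold flower stages 1 to 12 of dcl4-2 and rdr6-15 with their Col-0 control (set A here) and of dcl1-7 with a Col-0 control of its own (set B here). Each array stands for a pool of at least 9 plants; the sources used here do not give plant age or growth conditions. The mutated genes themselves have no probe set of a single symbol, so the genotype labels were not checked on them.

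UGTs are enzymes that move a sugar from a nucleotide sugar such as UDP-glucose onto small molecules. In plants the acceptors include hormones, flavonols, monolignols, sinapate, glucosinolate precursors, sterols and foreign chemicals, and the sugar usually makes the molecule more soluble, less active and fit for storage in the vacuole. Genes of a family often lie in tandem arrays that arose by local duplication: 30 of the 47 lie in 13 clusters of neighbouring UGT genes, the largest being UGT85A7, UGT85A2, UGT85A5 and UGT85A3. From textbook knowledge 26 of the genes were sorted by acceptor: 7 for phenylpropanoids and lignin, 5 for salicylate and immunity, 4 for flavonoids, 3 each for abscisic acid and auxin, 2 for cytokinins and 1 each for glucosinolates and sterols. The other 21 have no acceptor listed here.

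Values are log2 expression summaries, so a difference of 1 is a factor of 2. They describe how a gene varies between arrays, and levels of different genes are not compared. A gene was called when limma gave a Benjamini-Hochberg adjusted p under 0.05 over 22746 probe sets; SE is the standard error of the fit and group values are mean ± SD with n = 3. Array medians ran from 6.93 to 7.00 in leaf and from 7.04 to 7.17 in inflorescence, and correlations within a group from 0.97993 to 0.99785. Of the leaf arrays, 8 of 12 correlated best with an array of another genotype, against 0 of 15 inflorescence arrays. The difference between probe sets at the 3' and 5' ends of control transcripts, a measure of RNA integrity, was 2.40 to 3.60 in leaf. It was above 2 on 3 inflorescence arrays (dcl4-2 replicate 2, set B replicate 3 and dcl1-7 replicate 3). Arrays are numbered in accession order; the labels do not tie a number to a batch or a day. By correlation, 10 of 12 leaf arrays and 7 of 15 inflorescence arrays had their closest array of another group at the same number.

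**Figure D1:**
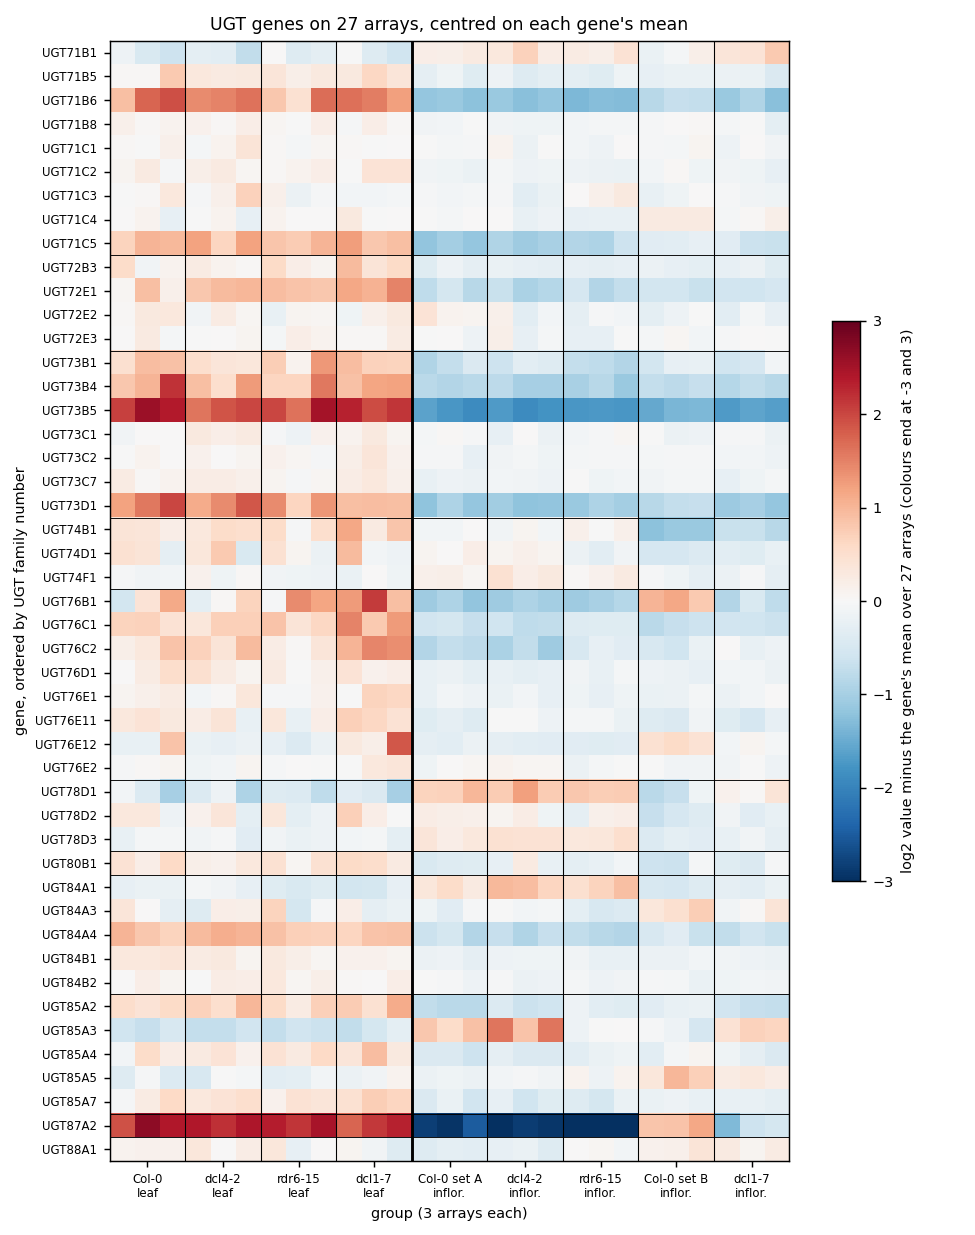
Log2 values of the 47 UGT genes on all 27 arrays, each row centred on the gene's mean over the arrays; columns are arrays in 9 groups of 3, with leaf left of the thick line, and colours end at differences of -3 and 3. UGT73B5, UGT87A2, UGT73D1, UGT71B6 and UGT73B4 stand out as higher in leaf, and UGT87A2 is higher in the set B inflorescences than in the other inflorescence groups.

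The clearest pattern among the UGT genes was a lower level in inflorescence than in leaf. Set against Col-0 leaf, set A inflorescence had 31 of the 47 called, 6 higher and 25 lower, where 60% of all probe sets were called. Set B inflorescence had 29 called, 2 higher and 27 lower, where 58.9% of all probe sets were called. The share called was thus near that of the whole array, and the split by direction was not: over all probe sets 31.5% were higher and 28.5% lower with set A, and 28.3% and 30.7% with set B. The median UGT difference was -0.36 with set A and -0.33 with set B, beside -0.03 and -0.06 over all probe sets. Both comparisons share the Col-0 leaf arrays. The difference between 3' and 5' probe sets also went with the organ: 2.40 to 3.59 in Col-0 leaf, 1.43 to 1.46 in set A and 1.39 to 2.49 in set B. Its part in the organ differences was not tested. The leaf and inflorescence arrays had different medians, and centring each array on its median moved the middle of all probe sets by -0.16 (set A) and -0.11 (set B). With centring 5 UGT genes were higher and 32 lower with set A, where the median over all probe sets was -0.19. The share of all probe sets called with centring is not given here, so these counts have no background beside them.

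Over all genotypes together, every leaf array lay above every inflorescence array for 18 of the 47 genes, which held for 13.1% of all probe sets, and every leaf array lay below every inflorescence array for 0 of the 47, which held for 12.3%. The 6 genes with the lowest mean difference, among those called lower with each set, belong to families UGT73, UGT71 and UGT87.

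UGT73B5 (AT2G15480) and its neighbour UGT73B4 (AT2G15490) are known for roles in the response to bacterial pathogens and for glucosylating xenobiotics. UGT73B5 read 8.98, 9.49 and 9.30 in Col-0 leaf, 5.32, 5.18 and 5.03 in set A and 5.39, 5.55 and 5.57 in set B. All leaf arrays were thus far above all inflorescence arrays, and the difference was -4.08 (SE 0.159, limma adjusted p = 1.01e-15) with set A and -3.75 (SE 0.159, adjusted p = 4.52e-15) with set B. UGT73B4 read 6.62, 6.83 and 7.98 in leaf, with 1 array well above the others, and between 4.93 and 5.12 in the wild-type inflorescences; the differences were -2.16 and -2.06.

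UGT71B6 (AT3G21780) and UGT71C5 (AT1G07240) glucosylate abscisic acid, a hormone of drought and seed dormancy. UGT71B6 read 6.75, 7.59 and 7.78 in Col-0 leaf against 4.62 to 4.72 in set A and 5.02 to 5.15 in set B, differences of -2.70 and -2.28. UGT71C5 read 8.68, 9.02 and 8.98 in leaf, 6.81 to 6.99 in set A and 7.66 to 7.76 in set B, differences of -2.01 and -1.19. The leaf and inflorescence ranges did not overlap for either gene, as for 71.2% of all probe sets with set A and 65.2% with set B. The third gene with this acceptor, UGT71B8, was not called with set A (-0.17) or set B (-0.10).

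UGT87A2 (AT2G30140), whose loss delays flowering in Arabidopsis, read 11.12, 11.91 and 11.63 in Col-0 leaf. It read 6.40, 6.27 and 6.72 in set A, which is 34.0 times lower than in leaf on the linear scale. In set B it read 10.04, 10.08 and 10.37, which is 2.62 times lower than in leaf. Set B thus stood much nearer to the leaf than to set A. UGT73D1 (AT3G53150), for which no acceptor is listed, read 7.01 to 7.82 in leaf and 4.61 to 5.11 in the wild-type inflorescences.

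Both cytokinin N-glucosyltransferases, UGT76C1 and UGT76C2, were called lower with each set. UGT76C1 differed by -1.19 and -1.31, and UGT76C2 by -1.24 and -0.87 (set A and set B). The glucosyltransferases of monolignols and sinapate were mixed: of the 7, UGT84A4 (-1.51 and -1.34) and UGT72E1 (-1.08 and -0.97) were called lower with each set, and UGT84A1 was called on opposite sides of the leaf, at 0.60 with set A and -0.25 with set B. UGT80B1, a sterol glucosyltransferase of the seed coat and epidermis, differed by -0.82 and -0.86. The auxin glucosyltransferase UGT84B1 differed by -0.53 and -0.47.

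The members called higher in inflorescence depended on the control set. With set A these were UGT85A3 (1.34), UGT78D1 (1.27), UGT71B1 (0.62), UGT84A1 (0.60), UGT78D3 (0.40) and UGT74F1 (0.21). With set B they were UGT85A5 (0.97) and UGT71C4 (0.31). These are bulk tissues, so fewer cells of a type and less RNA per cell cannot be told apart.

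**Figure D2:**
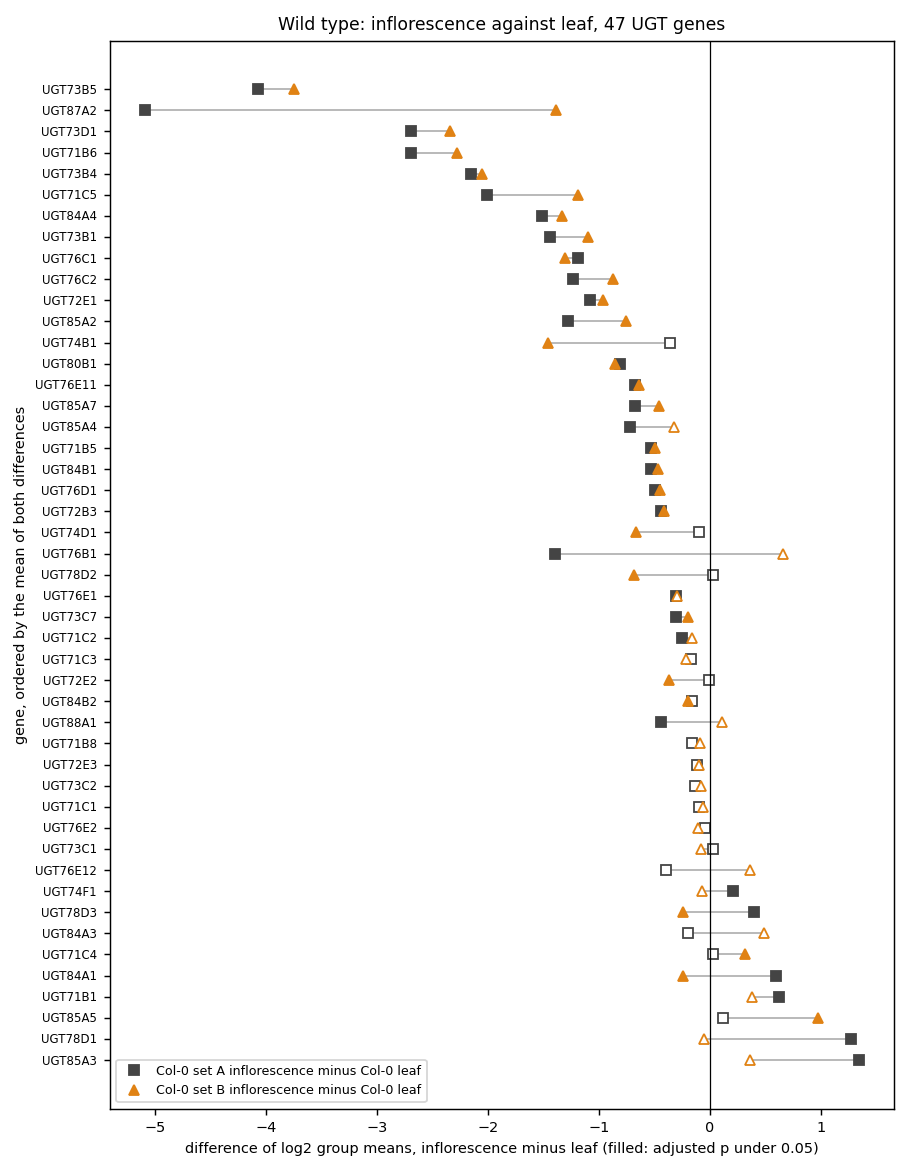
Difference of log2 group means, wild-type inflorescence minus Col-0 leaf, for the 47 UGT genes, with squares for set A and triangles for set B; filled symbols have a limma adjusted p under 0.05. Most genes lie left of 0, UGT73B5 near -4 with each set, and the sets lie far apart for UGT87A2 (-5.09 and -1.39) and UGT76B1 (-1.40 and 0.66).

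The marker genes fixed for the organs had few probe sets with a single symbol. Of 3 tapetum and pollen markers measured (AMS, SPL and EMS1, of 14 listed), all were higher in both wild-type inflorescence sets than in leaf, with a summed linear level of 160 to 206 on leaf arrays and 540 to 1120 on inflorescence arrays. Of 3 flower and meristem markers measured (UFO, INO and SPT, of 16 listed), 1 was higher and 1 lower with set A, and 2 were higher and 1 lower with set B; UFO was the lower one, at -0.30 and -0.28. Of 4 leaf photosynthesis markers measured (RCA and LHCB4.1 to LHCB4.3, of 20 listed), 3 were lower with set A and 2 with set B, and 0 higher. Their summed linear level was 40800 to 49900 in leaf and 26500 to 40100 in inflorescence.

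The wild-type inflorescence sets themselves differed. Between set B and set A, 23 of the 47 UGT genes were called, 14 higher and 9 lower in set B. Over all probe sets 47.7% were called (22.6% higher, 25% lower). The arrays of the sets did not overlap for 26 of the 47, beside 57.1% of all probe sets, so a lack of overlap was common. All 3 flavonol glycosyltransferases of family UGT78 and all 3 members of UGT74 were lower in set B, while UGT87A2, UGT76B1, UGT76E12 and 3 of the 5 UGT85 genes were higher. Set A and set B carry the same genotype and the same tissue label, and the sources used here do not say how their plants, RNA or arrays differed.

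UGT87A2 differed most, by 3.70 (SE 0.181, limma adjusted p = 3.52e-09). UGT76B1 (AT3G11340) glucosylates isoleucic acid, salicylate and N-hydroxypipecolate and holds back immune responses. It read 5.05, 5.19 and 4.93 in set A and between 6.904 and 7.274 in set B, a difference of 2.06 (SE 0.118, adjusted p = 1.41e-08), or 4.16 times higher. UGT76E12 (AT3G46660) read 4.90, 4.84 and 4.99 in set A against 5.64, 5.75 and 5.62 in set B, a difference of 0.76. The arrays of the sets did not overlap for any of these.

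UGT78D1 (AT1G30530) adds rhamnose to flavonols, UGT78D2 (AT5G17050) adds glucose to flavonols and anthocyanidins, and UGT78D3 (AT5G17030) adds arabinose. UGT78D1 read 10.31, 10.35 and 10.64 in set A and 8.84, 8.95 and 9.52 in set B, a difference of -1.33 (SE 0.173, adjusted p = 2.56e-05). UGT78D2 read 9.08, 9.04 and 9.01 against 8.17, 8.35 and 8.48, a difference of -0.71. UGT78D3 read 5.50, 5.34 and 5.47 against 4.74, 4.85 and 4.81, a difference of -0.64. All 3 genes were lower on every set B array than on any set A array. The 4th gene of the flavonoid group, UGT73B1, differed by 0.34 and was not called (adjusted p = 0.0788).

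In family UGT74, UGT74B1 (AT1G24100) makes the thioglucose bond of the glucosinolate core, UGT74D1 glucosylates auxins and UGT74F1 glucosylates salicylate. UGT74B1 read 9.41, 9.42 and 9.52 in set A and 8.26, 8.39 and 8.40 in set B, a difference of -1.10 (SE 0.0752, adjusted p = 6.70e-08). UGT74D1 read 8.20, 8.12 and 8.31 against 7.60, 7.61 and 7.72, a difference of -0.57. UGT74F1 read 6.14, 6.16 and 6.04 against 5.96, 5.84 and 5.70, a difference of -0.28. The glucosinolate gene thus showed the widest gap of the 3, and in none of them did the sets overlap.

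The UGT85 genes, for which no acceptor is listed here, were called in different directions. UGT85A3 (AT1G22380) read 8.26, 8.02 and 8.34 in set A and 7.42, 7.32 and 6.95 in set B, a difference of -0.98. Its neighbour UGT85A5 (AT1G22370) read 5.70, 5.76 and 5.70 against 6.23, 6.86 and 6.60, a difference of 0.85. UGT85A2 (AT1G22360), in the same cluster, read 7.34, 7.28 and 7.28 against 7.74, 7.85 and 7.88, a difference of 0.52. Neighbours in a tandem cluster were thus called in opposite directions. UGT85A4, outside the cluster, read 6.01, 6.03 and 5.84 against 6.13, 6.39 and 6.53, a difference of 0.39, and UGT85A7 was not called.

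The sinapate and hydroxycinnamate glucosyltransferases UGT84A1 and UGT84A3 are neighbours as well. UGT84A1 (AT4G15480) read 7.16, 7.37 and 7.09 in set A and 6.34, 6.32 and 6.44 in set B, a difference of -0.84. UGT84A3 (AT4G15490) read 8.22, 8.02 and 8.32 against 8.68, 8.84 and 9.09, a difference of 0.68. This pair too was called in opposite directions. UGT72E2, which glucosylates monolignols, read 7.36, 7.05 and 7.03 against 6.66, 6.79 and 6.93, a difference of -0.36.

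The abscisic acid genes UGT71C5 (0.82) and UGT71B6 (0.42), the cytokinin gene UGT76C2 (0.37) and the immunity gene UGT73B5 (0.33) were higher in set B. So were UGT71C4 (0.29), UGT73D1 (0.35) and UGT88A1 (0.55). UGT88A1 read 10.61, 10.71 and 10.68 in set A and 11.13, 11.14 and 11.39 in set B. The sets did not overlap for any of these 7 called genes, as for 57.1% of all probe sets. Each difference stayed under a factor of 2.

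Markers of floral tissues moved with the sets too. Of the flower and meristem markers, SPT, a carpel and meristem regulator, was 1.19 higher in set B, INO, an outer integument gene, was 0.73 higher, and UFO, a floral meristem gene, differed by 0.02 and was not called. Their summed linear level was 317 to 357 in set A, 564 to 644 in set B and 397 to 459 in dcl1-7. The tapetum and pollen markers summed to 962 to 1030 in set A, 540 to 803 in set B and 602 to 708 in dcl1-7. Against set B, dcl1-7 differed by -1.06 in INO and -0.42 in SPT. Among the photosynthesis markers LHCB4.3 differed by -1.57 in set B, while LHCB4.1 and LHCB4.2 were 0.28 and 0.37 higher. The part of these markers in the UGT differences was not tested.

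**Figure D3:**
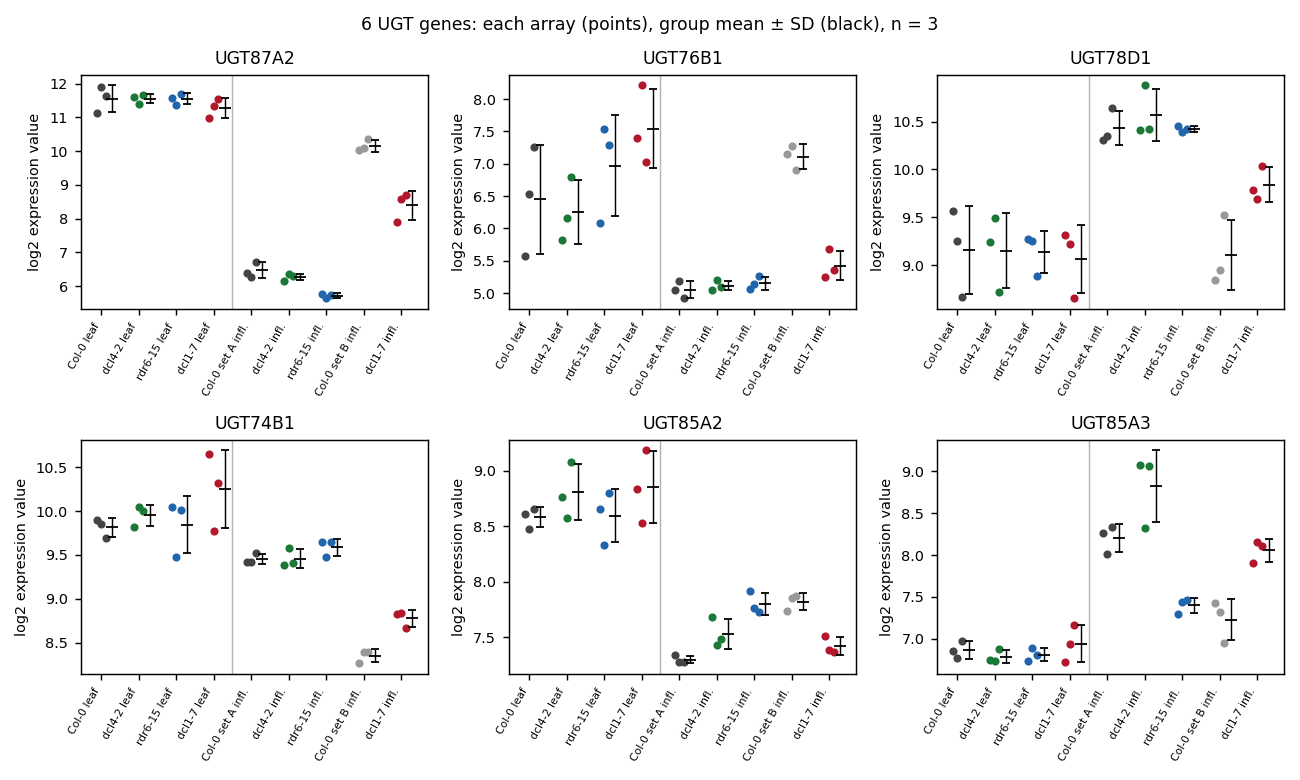
Log2 values of 6 UGT genes on each array (points) with group mean ± SD (black, n = 3), for the 4 leaf groups left of the grey line and the 5 inflorescence groups right of it; the vertical axes differ and do not start at 0. For UGT87A2 the leaf groups lie near 11.5, set A at 6.46, set B at 10.16 and dcl1-7 at 8.39.

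For dcl1-7 inflorescence the labels name set B as the control. Against it 13 of the 47 UGT genes were called, 4 higher and 9 lower, where 23.4% of all probe sets were called (12.6% higher, 10.8% lower). The set B arrays enter both this comparison and the one between the wild-type sets. DCL1 makes microRNAs, and this comparison asks how their loss changes the transcripts of the inflorescence. UGT87A2 and UGT76B1 were lower by more than a factor of 2, and the remaining 11 differences were smaller.

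UGT87A2 read 7.89, 8.59 and 8.70 in dcl1-7, below every set B array and above every set A array. It fell by 1.77 (SE 0.181, limma adjusted p = 1.65e-05), which is 3.41 times lower than set B, and was 1.93 higher than set A. UGT76B1 read 5.24, 5.67 and 5.36 in dcl1-7. It fell by 1.69 (SE 0.118, adjusted p = 7.03e-07), which is 3.22 times lower than set B, and was 0.37 higher than set A. UGT76E12 read 5.10, 5.27 and 5.10, which is 0.51 below set B and 0.25 above set A.

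Among the genes called higher, UGT85A3 read 7.90, 8.15 and 8.11 in dcl1-7, 0.83 above set B (SE 0.182, adjusted p = 0.00497) and not called against set A (-0.15). The flavonol rhamnosyltransferase UGT78D1 read 9.79, 9.69 and 10.04, 0.74 above set B (adjusted p = 0.00751) and 0.59 below set A. The glucosinolate gene UGT74B1 read 8.82, 8.84 and 8.66, 0.43 above set B (adjusted p = 0.00116) and 0.68 below set A. For UGT78D1 and UGT74B1, all dcl1-7 arrays thus lay between the arrays of the wild-type sets. UGT71B1 (AT3G21750) read 9.18, 9.21 and 9.58 in dcl1-7 against 8.60, 8.76 and 8.98 in set B, a difference of 0.54 (adjusted p = 0.0126), and 9.01, 8.98 and 9.08 in set A. Every dcl1-7 array of UGT71B1 lay above every array of both wild-type sets, but the difference of 0.30 from set A was not called (adjusted p = 0.122). The call against set B was lost without set B replicate 1 or dcl1-7 replicate 3.

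UGT85A5 read between 6.096 and 6.197 in dcl1-7, 0.43 below set B and 0.42 above set A. The call against set B was lost in 4 of 6 omissions of an array, and the difference was -0.28 without set B replicate 2. Its cluster neighbour UGT85A2 read 7.52, 7.38 and 7.37, 0.40 below set B. Hence UGT85A3 and the other 2 called genes of its cluster went in opposite directions. The same set B arrays enter the comparison of the wild-type sets, so this is not a separate observation of opposed neighbours. UGT84A3 (-0.41), UGT71B6 (-0.34), UGT73D1 (-0.33) and UGT71C4 (-0.22) were also called lower than set B. Of the 13 genes only UGT84A3 had overlapping arrays, with dcl1-7 up to 8.74 and set B from 8.68. Over the 47 UGT genes 19 did not overlap, beside 31.8% of all probe sets, and the 13 had been picked by their calls.

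By acceptor, the dcl1-7 calls against set B took in 1 of 3 abscisic acid genes (lower), 1 of 4 flavonoid genes (higher), the glucosinolate gene (higher), 1 of 7 phenylpropanoid genes (lower) and 1 of 5 salicylate genes (lower). None of the 3 auxin genes and neither cytokinin gene was called; UGT76C2 differed by 0.31 (adjusted p = 0.0613).

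These calls changed with the wild type used. Against set A, dcl1-7 had 15 UGT genes called, 7 higher and 8 lower, where 35.2% of all probe sets were called (17.2% higher, 18.1% lower). Of the 13 genes called against set B, 0 were called in the same direction against set A. Another 6 of them were called in the opposite direction and 7 were not called. The dcl1-7 mean lay between the means of sets A and B for 12 of the 13, and for 30 of all 47 UGT genes. Against all 6 wild-type arrays pooled dcl1-7 had 0 called. Pooling puts the gap between the sets into the spread of the fit, and a dcl1-7 mean between the sets then gives a small difference. This 0 is thus no separate result, and the share of all probe sets called with pooling is not given here. UGT87A2 then differed by 0.08, UGT76B1 by -0.66, UGT85A3 by 0.34 and UGT78D1 by 0.07. 

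**Figure D4:**
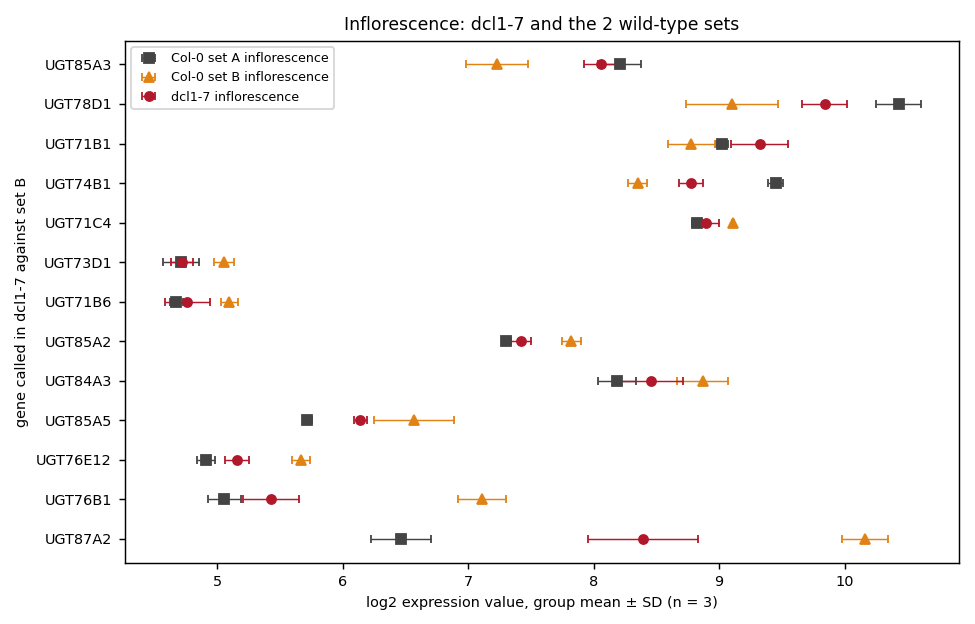
Log2 expression (group mean ± SD, n = 3) of the 13 UGT genes called in dcl1-7 inflorescence against Col-0 set B, shown for set A (squares), set B (triangles) and dcl1-7 (circles); genes are ordered by the dcl1-7 minus set B difference. UGT87A2 lies at 8.39 in dcl1-7, between 6.46 in set A and 10.16 in set B, and UGT71B1 lies at 9.32, above both sets.

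In dcl4-2 inflorescence, against set A, 1 of the 47 UGT genes was called, where 2.08% of all probe sets were called (1.11% higher, 0.972% lower). UGT84A1 read 7.79, 7.76 and 7.48 in dcl4-2 against 7.16, 7.37 and 7.09 in set A, and rose by 0.47 (SE 0.109, limma adjusted p = 0.0474), a factor of 1.38. The dcl4-2 arrays lay above every set A array. The call lies close to the threshold: leaving out each of the 6 arrays in turn, it was kept only without dcl4-2 replicate 3. UGT85A3 read 9.07, 8.32 and 9.06 in dcl4-2, a difference of 0.61 with an adjusted p of 0.118.

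In rdr6-15 inflorescence, against the same set A, 7 UGT genes were called, 4 higher and 3 lower, where 8.66% of all probe sets were called (4.17% higher, 4.49% lower). Both cytokinin N-glucosyltransferases were called higher. Leaving out each of the 6 arrays in turn, the call was lost in 5 cases for UGT76C2 and in 6 for UGT76C1. UGT76C2 (AT5G05860) read 6.87, 7.09 and 7.00 in rdr6-15 against 6.47, 6.62 and 6.56 in set A, a rise of 0.43 (SE 0.109, adjusted p = 0.0275). UGT76C1 (AT5G05870), its neighbour, read 5.76, 5.77 and 5.79 against 5.57, 5.61 and 5.44, a rise of 0.24 (adjusted p = 0.0423). The groups did not overlap for either gene, as for 17 of the 47 UGT genes and 35.8% of all probe sets.

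UGT85A2 read 7.92, 7.76 and 7.72 in rdr6-15 and rose by 0.50 over set A (SE 0.0762, adjusted p = 0.00166), while its cluster neighbour UGT85A3 read 7.30, 7.44 and 7.46 and fell by 0.81 (SE 0.182, adjusted p = 0.0154). UGT88A1 read between 10.91 and 11.06 and rose by 0.32. UGT87A2 read 5.77, 5.64 and 5.74, below every set A array, and fell by 0.74 (SE 0.181, adjusted p = 0.0226). The auxin glucosyltransferase UGT74D1 read 7.95, 7.80 and 8.00 and fell by 0.29 (adjusted p = 0.0221). Of the 7 calls, that of UGT85A2 was kept when each of the 6 arrays was left out in turn. The count was 1 without set A replicate 1 or 3, 2 without rdr6-15 replicate 1 or 2, and 4 without set A replicate 2 or rdr6-15 replicate 3.

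DCL4 and RDR6 act in the same route of trans-acting small RNAs, and the difference between their mutants was tested directly, as a comparison added after the values were seen. Between dcl4-2 and rdr6-15 inflorescences 7 UGT genes were called, 2 higher and 5 lower in dcl4-2, where 15.4% of all probe sets were called (8.02% higher, 7.42% lower). UGT85A3 was 1.42 higher in dcl4-2 (SE 0.182, limma adjusted p = 0.000272), a factor of 2.68. UGT74D1 was 0.31 higher. UGT76C2 was lower in dcl4-2 by 0.55, UGT76C1 by 0.33, UGT71C3 by 0.34, and UGT85A2 and UGT88A1 by 0.27 each. For UGT85A3 the dcl4-2 arrays began at 8.32 and the rdr6-15 arrays ended at 7.46, so the groups were apart. The methyl salicylate gene UGT71C3 read 5.20, 4.92 and 5.01 in dcl4-2 and 5.25, 5.39 and 5.52 in rdr6-15.

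In leaf no UGT gene passed the threshold in the mutants of the trans-acting siRNA route. The fit does not model the likeness of leaf arrays of the same number, and its part in these counts was not tested. In dcl4-2 leaf 0 of 47 were called by limma, where 0% of all probe sets were called, and 3 had an unadjusted p under 0.05. In rdr6-15 leaf 0 of 47 were called, where 0.0176% of all probe sets were called (0.0132% higher, 0.0044% lower), and 1 had an unadjusted p under 0.05. UGT72E1 (AT3G50740), which glucosylates coniferyl and sinapyl aldehydes, read 5.98, 6.84 and 6.09 in Col-0 leaf, 6.75, 6.87 and 6.92 in dcl4-2 leaf and 6.86, 6.79 and 6.74 in rdr6-15 leaf. Its differences were 0.54 and 0.49, and the Col-0 array at 6.84 lay within the range of the mutants. UGT73C1 differed by 0.28 in dcl4-2 leaf, and UGT73D1 by -0.47 in rdr6-15 leaf. The UGT73D1 value was -0.23 when the rdr6-15 array at 6.45 was left out and -0.26 when the Col-0 array at 7.82 was. Leaving out the Col-0 array at 6.84 moved UGT72E1 to 0.81 in dcl4-2 and 0.76 in rdr6-15 leaf.

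In dcl1-7 leaf 2 UGT genes were called, both higher, where 9.42% of all probe sets were called (4.18% higher, 5.24% lower). UGT72E1 read 7.08, 6.98 and 7.42, above every Col-0 leaf array, and rose by 0.86 (SE 0.192, limma adjusted p = 0.0165), a factor of 1.81. UGT76C2 read 8.36, 8.80 and 8.74 against 7.51, 7.67 and 8.20 and rose by 0.84 (SE 0.197, adjusted p = 0.0197), a factor of 1.79. UGT76C1 read 7.63, 6.94 and 7.42 against 6.80, 6.82 and 6.58, a difference of 0.60 with an adjusted p of 0.0621. UGT76B1 spread widely, at 7.39, 8.21 and 7.03 against 5.58, 6.53 and 7.25, a difference of 1.09 with an adjusted p of 0.184.

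The leaf calls rested on few arrays. Without Col-0 leaf replicate 1, or without dcl1-7 leaf replicate 3, 0 UGT genes were called, without Col-0 leaf replicate 2 there was 1, and without dcl1-7 leaf replicate 1 there were 4. That last array correlated at 0.98455 with an rdr6-15 leaf array and at 0.97993 to 0.98204 with its own group. Of the 4 photosynthesis markers measured, 1 was called lower in dcl1-7 leaf and 0 higher, with a median difference of -0.15. LHCB4.3 differed by -1.19 between dcl1-7 and Col-0 leaf. The dcl1-7 and Col-0 leaf means were 13.58 and 13.85 for RCA, 13.93 and 13.96 for LHCB4.1, and 13.59 and 13.41 for LHCB4.2. The part of these markers in the UGT differences was not tested.

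**Figure D5:**
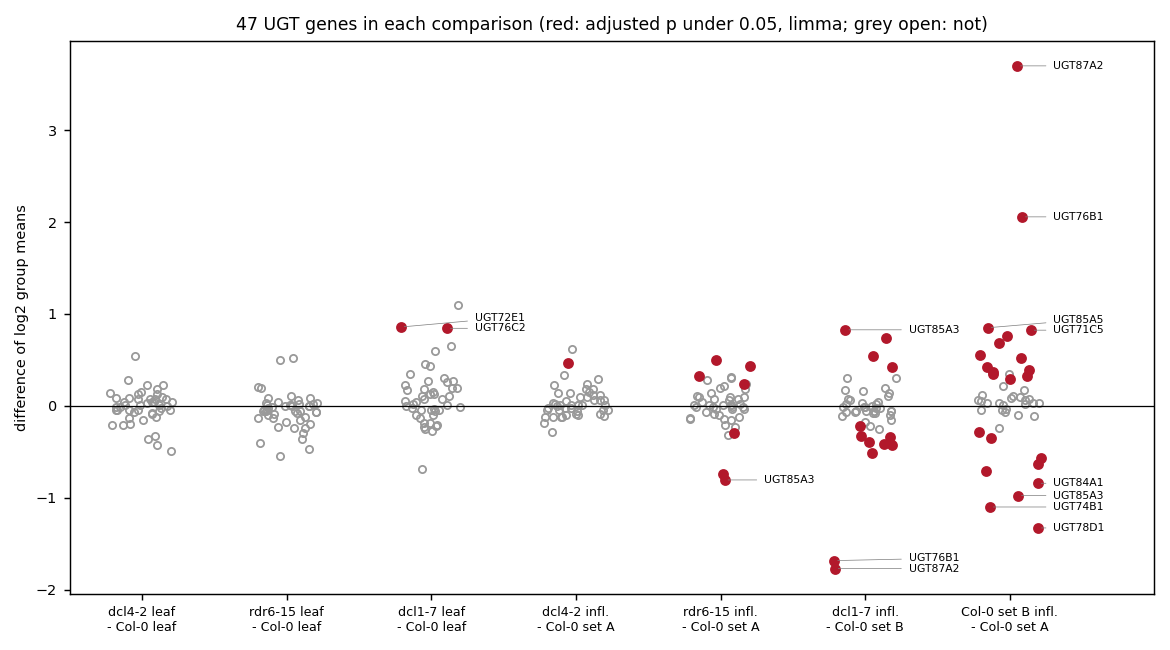
Difference of log2 group means for the 47 UGT genes in 6 mutant comparisons and between the wild-type inflorescence sets (last column); red filled points have a limma adjusted p under 0.05, grey open points do not, and called genes beyond 0.8 are named. Red points number 0, 0, 2, 1, 7, 13 and 23 from left to right.

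Over the 6 comparisons of a mutant with its labelled control, 19 of the 47 UGT genes were called at least once and 28 were not called, where 33.7% of all probe sets were called at least once. UGT71C1, UGT71B8 and UGT72E3 varied least of all: their 9 group means spanned 0.23, 0.24 and 0.27. The means of UGT71C1 (4.60 to 4.83), UGT71B8 (5.24 to 5.49) and UGT72E3 (5.96 to 6.23) lay below the array medians, and RMA compresses low signals. A small span there need not mean a steady transcript. UGT87A2 (5.84) and UGT73B5 (4.12) spanned most, UGT73B5 almost wholly between the organs, since its means spanned 0.49 within leaf and 0.38 within inflorescence. The highest group mean was that of dcl1-7 leaf for 22 of the 47 genes, which held for 22.3% of all probe sets.

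The effect of dcl1-7 differed between organs for 8 UGT genes, 2 higher and 6 lower in inflorescence than in leaf, where 22.3% of all probe sets were called (12.6% higher, 9.64% lower). The test is the interaction in a fit of all 27 arrays, with set B as the inflorescence control. UGT76B1 had the widest gap, with a dcl1-7 difference of 1.09 in leaf, which was not called, and -1.69 in inflorescence. The other called genes were UGT87A2, UGT76E12, UGT72E1, UGT85A2, UGT85A5, UGT85A3 and UGT84A1. With set A as the inflorescence control the interaction changed sign for UGT87A2, UGT85A3, UGT85A5 and UGT84A1, and was smaller for UGT76B1. These calls thus depend on the wild type used. UGT72E1 read 5.35, 5.32 and 5.42 in dcl1-7 inflorescence and 5.37, 5.38 and 5.26 in set B, so its rise in dcl1-7 leaf had no counterpart past the threshold there.

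Other genes of the pathways around the UGTs were counted from lists, of which few members have a single-symbol probe set. Tau glutathione transferases, which conjugate foreign chemicals to glutathione, were the best covered, with 11 of 41 detoxification genes measured. In this list 2 were higher in dcl4-2 inflorescence, GSTU26 (0.84) and GSTU27 (0.49), where 2.08% of all probe sets were called. In rdr6-15 inflorescence 2 were higher, GSTU20 (0.77) and GSTU27 (0.74), and 2 lower, GSTU18 (-0.58) and GSTU16 (-0.50), where 8.66% of all probe sets were called. In dcl1-7 inflorescence against set B 3 were higher and 1 lower, led by GSTU20 (2.00), which differed by -2.71 between set B and set A; 23.4% of all probe sets were called there. In dcl1-7 leaf GSTU18 (0.54) and GSTU27 (0.57) were higher and GSTU20 (-0.86) lower, where 9.42% of all probe sets were called.

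Of 24 lignin and sinapate genes 4 were measured. REF1, an aldehyde dehydrogenase that makes sinapate and ferulate, differed from leaf by -2.68 in set A and -2.19 in set B, and rose by 0.37 in rdr6-15 inflorescence. CCR2, a cinnamoyl-CoA reductase, fell by 0.43 in rdr6-15 inflorescence. CCOAMT, a methyltransferase of the same route, was 1.24 higher in set B than in set A and fell by 1.19 in dcl1-7 against set B. Of 21 flavonoid genes 2 were measured, DFR and BAN, both of the branch to anthocyanins and tannins; they differed by -0.35 and -0.38 between set B and set A, and BAN was 0.57 higher in dcl1-7 than in set B.

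Of 40 cytokinin genes 2 were measured, the response regulators ARR15 and ARR16. ARR15 fell by 0.61 in dcl4-2 and by 0.36 in rdr6-15 inflorescence, and ARR16 was 0.79 higher in dcl1-7 than in set B. Of 24 salicylate genes only SAG101, a partner of EDS1 in immunity, was measured. It differed from leaf by -4.02 in set A and -2.96 in set B, and was 1.06 higher in set B than in set A. In dcl1-7 inflorescence it was 0.61 lower than set B and 0.45 higher than set A. Each of these differences was called, so the direction in dcl1-7 changed with the wild type used. Of 32 nucleotide sugar genes only USP, which makes UDP-sugars, was measured, and it differed by -0.89 between set B and set A. In dcl1-7 inflorescence USP was called 0.31 higher than set B and 0.58 lower than set A.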

How the data were processed

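The log2 values were deposited by the authors as 1 summary per probe set and array, made with RMA, per the submitters' processing notes. RMA subtracts background, quantile-normalizes and fits the probes of a set; the sources used here give neither its version nor whether leaf and inflorescence arrays were treated jointly. Low signals are compressed by it, and a shift of all transcripts is hidden. Arrays carry no read depth, and their number limits the precision.

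Of 22810 probe sets 64 controls were left out, and the 22746 others were tested with no filter on dim probe sets. GEO's platform annotation gives 1 symbol for 13513 of these, several for 503 and none for 8730. Loci and neighbours of all 47 UGT genes came from the RefSeq genes of TAIR10.1.

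Group means were fitted (lmFit, then eBayes; R 4.3.3, limma 3.58.1) over the 12 leaf and the 15 inflorescence arrays separately. Organ differences and the interaction came from a fit of all 27 arrays. The groups come from the labels' descriptions; the design text calls the arrays biological replicates. The fit was tested on simulated data. The alternatives were median centring, leaving out the dimmest 25%, array weights, a fit of all 27 arrays and other wild-type controls. Further ones left out each array, or the 3 inflorescence arrays with a difference of 3' and 5' probe sets above 2. The leaf arrays were kept in that last setting, although theirs was above 2 as well.

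Genes were named when called in a mutant comparison (at most 8 each), in the interaction or between the wild-type sets, as the 6 lowest in inflorescence, or as the 2 of smallest p where nothing was called; other lists gave up to 3 members per comparison. The members, lists and tests were chosen with earlier results of these data known. The comparison of dcl4-2 with rdr6-15 was added after its values were seen. No sequences are shown, since no sequence table was used here.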

Additional observations from a re-analysis of the deposited data

Results flagged for a closer look

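The effect of dcl1-7, mutant minus Col-0 with set B as the inflorescence control, differed between inflorescence and leaf for 8 UGT genes by the interaction test (limma, 12 arrays of 4 groups in a fit of all 27). UGT76B1 differed by -2.78 (SE 0.508, adjusted p = 0.000347) and UGT87A2 by -1.50 (SE 0.276, adjusted p = 0.000365), so that the inflorescence effect was the lower one. UGT76E12 differed by -1.16 (adjusted p = 0.0438), UGT72E1 by -0.83 (adjusted p = 0.00911), UGT85A2 by -0.67 (adjusted p = 0.0166) and UGT85A5 by -0.66 (adjusted p = 0.0184). UGT85A3 differed by 0.75 (adjusted p = 0.0173) and UGT84A1 by 0.42 (adjusted p = 0.0446), a call lost in 10 of 12 omissions of an array. The UGT76E12 call was lost in 9 of 12 omissions, that of UGT85A5 in 3, and those of UGT85A2 and UGT85A3 in 1 each. With set A as the control UGT76B1 gave -0.72 and UGT87A2 gave 2.20. For UGT76E12 in leaf, 1 array of each genotype stood above the others, 6.02 in Col-0 and 7.03 in dcl1-7, and without dcl1-7 leaf replicate 3 its difference was -0.62 and not called (adjusted p = 0.106).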

How the results depend on the processing

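No paired analysis was possible because the labels give no replicate numbers shared between groups; numbers in accession order only name arrays, and no fit with them as a block was run. Over the settings that keep all arrays or leave out the 3 arrays named above, the 349 values of single genes kept direction and side of the threshold in 296 cases, lost the call in 40 and reversed in 13. A fit of all 27 arrays gave 7 UGT calls in dcl1-7 leaf, 3 in rdr6-15 inflorescence, 6 in dcl1-7 inflorescence and 2 between dcl4-2 and rdr6-15. Array weights gave 4 in dcl4-2 inflorescence and 15 in rdr6-15 inflorescence. Without the arrays of high 3' minus 5' difference there were 12 in rdr6-15 inflorescence and 5 in the interaction. With pooled wild types, where the spread takes in the gap between the sets, dcl1-7 inflorescence had 0 calls. The shares of all probe sets called under these settings are not given here, so a move of the UGT genes and one of the whole array cannot be told apart. The cause of these moves was not tested. All reversals came with another wild type. Set A as control of dcl1-7 gave UGT87A2 1.93, UGT76B1 0.37, UGT85A3 -0.15, UGT78D1 -0.59, UGT76E12 0.25, UGT85A5 0.42 and UGT74B1 -0.68; pooled, UGT87A2 gave 0.078 and UGT74B1 -0.13. In the interaction set A gave UGT84A1 -0.43, UGT85A3 -0.22, UGT85A5 0.19 and UGT87A2 2.20. Leaving out each array in turn, the UGT calls ran from 0 to 0 in dcl4-2 leaf and in rdr6-15 leaf, 0 to 4 in dcl1-7 leaf, 0 to 1 in dcl4-2 inflorescence, 1 to 4 in rdr6-15 inflorescence, 10 to 12 in dcl1-7 inflorescence, 20 to 24 between the wild-type sets, 28 to 30 for set A against leaf, 24 to 29 for set B against leaf, 5 to 13 in the interaction and 3 to 6 between dcl4-2 and rdr6-15. Omitting dcl1-7 leaf replicate 1 gave 13 in the interaction, and omitting either set B replicate 2 or the dcl1-7 leaf array numbered 3 gave 5. Between dcl4-2 and rdr6-15 it was 3 without rdr6-15 replicate 2 and 4 without dcl4-2 replicate 3; in dcl4-2 inflorescence it was 0 without any set A array or dcl4-2 replicate 1. Weakly expressed genes limit these arrays, since RMA compresses their differences.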
